A study of Homo sapiens with 8 samples.

Results

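Integrins and laminins are both sides of a main contact between a cell and its surrounding matrix. The genes described here were all those on the array whose platform symbol names an integrin alpha chain, an integrin beta chain or a laminin chain. The rule reads symbols only. This rule took 57 of 47323 probes, which named 36 of 20046 genes: 18 integrin alpha chains, 8 integrin beta chains and 10 laminin chains. The other chains of the laminin trimer that contains LAMB3 were not analysed here.

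An integrin is a receptor made of 1 alpha and 1 beta chain, and the pair decides which ligand it binds. ITGB1 pairs with many alpha chains, among them the collagen-binding ITGA1, ITGA2, ITGA10 and ITGA11 and the laminin-binding ITGA3, ITGA6 and ITGA7, whereas ITGB4 pairs with ITGA6 only. A laminin is a trimer of 1 alpha, 1 beta and 1 gamma chain that is laid down in basement membranes. In melanoma, a change in the integrins at the cell surface is known to accompany growth into the dermis.

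RNA came from A375-LM3, which derives from the established melanoma line A375 of human origin, and was measured on 8 Illumina HumanHT-12 V4 BeadChips with 1 intensity per probe. The groups, of 2 arrays each, were JMJD3-expressing cells taken out of primary tumors that A375-LM3 cells had formed and then kept for 3 passages (tumor-dissociated JMJD3 cells), vector cells of the same origin (tumor-dissociated vector cells), JMJD3-expressing cells cultured for 1 day in serum-containing medium (cultured JMJD3 cells) and vector cells cultured likewise (cultured vector cells). JMJD3 is the histone H3K27 demethylase encoded by KDM6B, and every group carries a construct, either JMJD3 or the empty vector. Growth in a tumor, dissociation and the length of culture differ together between the origins and cannot be told apart. The labels do not give the host of the tumors, whether tumors were pooled, whether the lines were clones, or whether separate cultures or tumors gave the 2 arrays of a group. The p-values therefore rest on a spread between arrays that may be only technical.

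An intensity over 161.4 was taken as above background. The 2 arrays of a group correlated across the 12415 tested genes with r of 0.981 in tumor-dissociated JMJD3, 0.982 in tumor-dissociated vector, 0.990 in cultured JMJD3 and 0.993 in cultured vector cells. The second principal component, with 19.6% of the variance, placed replicate 1 of the tumor-dissociated JMJD3 cells and of the tumor-dissociated vector cells replicate 2 at its ends. KDM6B itself read 161.7 and 159.7 in tumor-dissociated JMJD3, 148.4 and 140.6 in tumor-dissociated vector, 155.8 and 150.0 in cultured JMJD3, and 150.3 and 144.5 in cultured vector cells, above background on 1 array. Whether the introduced sequence holds the part this probe reads was not tested.

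The melanocyte lineage factors SOX10 and MITF and the marker S100A1 were above background on all 8 arrays, whereas MLANA, TYR and S100B were above it on none. SOX10 read 1188 and 2184 in tumor-dissociated JMJD3 cells, 1560 and 231 in tumor-dissociated vector cells, 2569 and 1956 in cultured JMJD3 cells, and 3096 and 2110.0 in cultured vector cells, so replicate 2 of the tumor-dissociated vector cells was far below the other 7 arrays. The summed intensity of 8 fibroblast markers was 2415 to 3875 in tumor-dissociated JMJD3, 2494 to 3058 in tumor-dissociated vector, 1472 to 1535 in cultured JMJD3 and 1404 to 1480.0 in cultured vector cells. Of these markers THY1 was above background on no array, and 2, PDGFRB and LUM, were above it on all 8. The leukocyte markers PTPRC, CD3E, MS4A1 and CD53, the endothelial markers VWF, CDH5, KDR and ERG, and the keratinocyte markers KRT1, KRT5 and DSG3 were above background on 0 of 8 arrays. Other markers of these lists were measured: of the leukocyte list CD14 and CD68 on all 8 arrays, LYZ on 7, LAPTM5 on 6 and CSF1R on 4, of the keratinocyte list KRT10 and DSC3 on 8 and KRT14 on 5, and of the endothelial list PECAM1 on 2 and TEK on 1.

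Of the 36 genes, 26 had a probe above background on at least 2 arrays and were tested, and 20 of these were above it on all 8. The 10 untested genes were ITGA2B, the platelet integrin chain, ITGA8, ITGAD, ITGAL, ITGAM and ITGAX, of which all but ITGA8 pair with ITGB2 in leukocytes or ITGB3 in platelets, the epithelial ITGB6, and the laminin chains LAMA1, LAMB4 and LAMC3. Among the untested genes 3 were above background on a single array: ITGA8 and LAMA1 in tumor-dissociated JMJD3 cells (replicate 1), at 172 and 198, and ITGAM on replicate 2 of the cultured vector cells, at 164. ITGB2, the shared beta chain of leukocyte integrins, was nevertheless above background on all 8 arrays by both of its probes. The probe used for ITGB2 read between 296 and 404, while none of the leukocyte alpha chains that pair with it was measured above background on more than 1 array. The 6 tested genes that were not above background on every array were ITGA7, ITGA11, ITGB4, ITGB7, ITGB8 and LAMA2.

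The first question was how cells from tumors differ from cells kept in culture. LAMA5 and ITGB4 were higher in tumor-dissociated than in cultured cells with either construct. LAMA4 rose in JMJD3 cells, and ITGA6 fell in vector cells. No other integrin or laminin gene passed in these comparisons.

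LAMA5 encodes the laminin alpha 5 chain, found in most adult basement membranes. Its intensity was 9141 and 6635 in tumor-dissociated JMJD3 cells, 5784 and 7862 in tumor-dissociated vector cells, 1777 and 1665 in cultured JMJD3 cells, and 1219 and 1161 in cultured vector cells. All 4 tumor-dissociated arrays stood above all 4 cultured arrays. LAMA5 rose 4.75-fold in JMJD3 cells (log2 difference 2.25 ± 0.21 SE, 2 arrays per group, limma adjusted p = 0.00119) and 6.11-fold in vector cells (2.61 ± 0.21, limma adjusted p = 0.00013). It passed in every one of the 20 alternative fits, with log2 differences between 2.01 and 2.48 in JMJD3 cells and between 2.39 and 2.84 in vector cells.

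ITGB4 encodes the integrin beta 4 chain, the laminin receptor subunit that anchors epithelial cells through hemidesmosomes. It read 568 and 333 in tumor-dissociated JMJD3 cells and 316 and 488 in tumor-dissociated vector cells, against 173.4 and 174.0 in cultured JMJD3 cells and 147.2 and 157.2 in cultured vector cells. The tumor-dissociated arrays again lay above every cultured array, and both cultured vector arrays were not above background. ITGB4 rose in JMJD3 cells (log2 difference 2.20 ± 0.35, limma adjusted p = 0.0131). It was called higher in vector cells too. Of those compared groups it was above background in the tumor-dissociated one alone, so that call is no support. The size of these differences depended on the background correction: without it they were 1.32 in JMJD3 cells (log2, limma adjusted p = 0.0335) and 1.37 in vector cells. The call in JMJD3 cells was lost without replicate 1 or replicate 2 of the cultured JMJD3 cells (limma adjusted p = 0.0729 and 0.112), where the log2 difference was 2.19 and 2.21.

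LAMA4 encodes the laminin alpha 4 chain, typical of the basement membranes of vessels, muscle and nerve. In tumor-dissociated JMJD3 cells it read 1568 and 1976, against 838 and 545 in cultured JMJD3 cells, and it rose 2.90-fold (log2 difference 1.54 ± 0.27, limma adjusted p = 0.0165). Without replicate 2 of the cultured JMJD3 cells the log2 difference was 1.17 and did not pass (limma adjusted p = 0.137). Tumor-dissociated vector cells read 1407 and 1500.3 and cultured vector cells 1223 and 888, which did not pass (log2 difference 0.53 ± 0.27, limma adjusted p = 0.258). A test of whether the origin difference of LAMA4 itself differed between JMJD3 and vector cells gave 1.01 ± 0.38 on the log2 scale and did not pass (limma adjusted p = 0.615).

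ITGA6, the alpha partner of ITGB4 and also of ITGB1, moved the other way in vector cells. Tumor-dissociated vector cells read 406 and 395, against 705 and 753 in cultured vector cells, a fall of ITGA6 (log2 difference -1.07 ± 0.23, limma adjusted p = 0.0201). In tumor-dissociated JMJD3 cells it read 421 and 632, against 639 and 568 in cultured JMJD3 cells, so these groups overlapped (log2 difference -0.28 ± 0.23, limma adjusted p = 0.477). The call in vector cells was lost in each of the 4 fits that left out 1 of the compared arrays, where the log2 difference lay between -1.13 and -1.02 (limma adjusted p = 0.0652 and 0.0917 without the tumor-dissociated vector array of replicate 1 or 2, and 0.0821 and 0.142 without the cultured vector array of replicate 1 or 2).

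**Figure D1:**
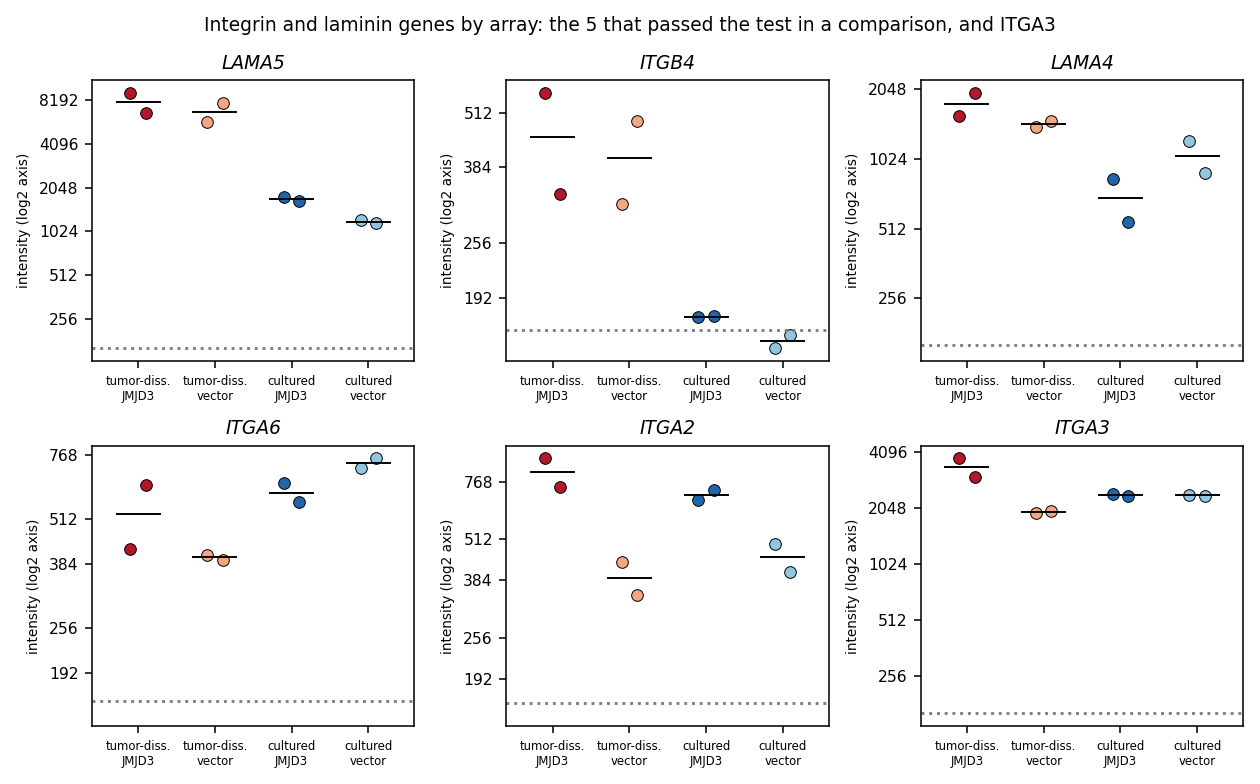
Deposited intensity of LAMA5, ITGB4, LAMA4, ITGA6, ITGA2 and ITGA3 on each of the 8 arrays, on a log2 axis. Points are arrays, bars are means of 2 arrays, and the dotted line is the background level of 161.4. LAMA5 and ITGB4 are higher on all 4 tumor-dissociated arrays than on any cultured array, and ITGA2 and ITGA3 are higher in tumor-dissociated JMJD3 cells than in tumor-dissociated vector cells.

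The promoter sequences of the genes that passed are given where the RefSeq table of GRCh38.p14 had a window ending at the gene's annotated start, which held for 3 of the 5 genes: LAMA5 and ITGA2, each with a rise, and ITGA6, with a fall. Each line is the 250 bases before the start, 5′ to 3′ on the gene's strand. Capitals mark matches to GGGCGG (the GC box bound by SP1), TATAAA (the TATA box) or TGANTCA (an AP-1 site), each searched on both strands; none of the matches overlapped another motif.
LAMA5, chr20:62367313-62367562, minus strand: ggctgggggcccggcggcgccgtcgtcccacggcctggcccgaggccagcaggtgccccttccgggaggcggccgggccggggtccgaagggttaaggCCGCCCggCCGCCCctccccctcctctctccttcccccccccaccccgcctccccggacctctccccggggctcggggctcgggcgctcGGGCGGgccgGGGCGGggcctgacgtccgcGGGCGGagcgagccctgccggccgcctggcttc
ITGA2, chr5:52989102-52989351, plus strand: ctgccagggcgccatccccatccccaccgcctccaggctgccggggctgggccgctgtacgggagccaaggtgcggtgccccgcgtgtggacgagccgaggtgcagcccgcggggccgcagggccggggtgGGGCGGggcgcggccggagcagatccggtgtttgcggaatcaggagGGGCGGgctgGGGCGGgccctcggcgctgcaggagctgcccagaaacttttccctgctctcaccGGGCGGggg
ITGA6, chr2:172427086-172427335, plus strand: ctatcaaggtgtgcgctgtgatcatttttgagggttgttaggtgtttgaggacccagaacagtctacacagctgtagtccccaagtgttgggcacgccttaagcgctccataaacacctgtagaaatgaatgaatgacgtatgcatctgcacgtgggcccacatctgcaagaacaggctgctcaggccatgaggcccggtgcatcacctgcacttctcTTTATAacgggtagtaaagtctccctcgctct

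The GC box was matched 5 times in the LAMA5 window, 4 times in the ITGA2 window and 0 times in the ITGA6 window, and 42.6% of 35116 windows of this length held at least 1. The ITGA6 window held 1 match to the TATA box, on the reverse strand, and 10.7% of windows held one. An AP-1 site was found in 0 of the 3 windows and in 6.57% of all. CpG dinucleotides, the bases at which vertebrate DNA is methylated, numbered 32 for LAMA5, 26 for ITGA2 and 8 for ITGA6, with a median of 11 over all windows. These are descriptions of letters, and no binding or methylation was measured.

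Counted over the tested genes, 3 of 26 were called higher and 0 lower in tumor-dissociated against cultured JMJD3 cells, where 5.96% of the 12415 genes were called, 3.76% higher and 2.2% lower. In vector cells 2 of 26 were called higher and 1 lower, where 10.1% of all genes were called, 6.15% higher and 3.99% lower. Of the 2 called higher, ITGB4 was above background only in the tumor-dissociated group of that comparison. In vector cells the share called was near that of all genes. The median log2 difference of the 26 genes was 0.49 in JMJD3 cells and -0.096 in vector cells, beside medians of -0.012 and -0.026 over all genes. Over the 20 genes above background on all 8 arrays the medians were 0.51 and -0.20, beside -0.023 and -0.038 for all genes so measured. The median in JMJD3 cells stood at 0.25 without replicate 2 of the tumor-dissociated JMJD3 cells and at 0.31 without replicate 2 of the cultured JMJD3 cells. In vector cells it ranged from -0.17, without replicate 2 of the cultured vector cells, to -0.053, without replicate 1.

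In JMJD3 cells the groups did not overlap for 15 of the 26 genes, 14 higher in tumor-dissociated cells and 1, ITGAE, lower, while 26.6% of all genes were higher and 29% lower without overlap. In vector cells the groups did not overlap for 13, of which 5 were higher and 8 lower, beside 26.7% and 30.8% of all genes. The 8 lower ones were ITGA1, ITGA3, ITGA6, ITGAE, ITGB1, ITGB2, ITGB5 and LAMB3. ITGB1, the beta chain shared by most of these receptors, read 5938 and 6061 in tumor-dissociated vector cells, against 6800.3 and 6219 in cultured vector cells, a log2 difference of -0.12 ± 0.16 (limma adjusted p = 0.693). LAMC1, the gamma chain shared by most laminins, differed by 0.21 ± 0.16 in JMJD3 cells and by 0.086 ± 0.16 in vector cells (limma adjusted p = 0.456 and 0.789), while its partner LAMA5 rose in both.

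The summed fibroblast markers were also higher on every tumor-dissociated array than on any cultured one. Of the 7 tested, 3 were called higher in JMJD3 and 4 in vector cells, beside 3.76% and 6.15% of all genes. Among them PDGFRB, a receptor of mesenchymal cells, rose with either construct. Its log2 differences were 2.90 ± 0.43 in JMJD3 and 1.88 ± 0.43 in vector cells (limma adjusted p = 0.0105 and 0.0266). Not every marker followed. DCN read 161.3 and 213 in tumor-dissociated JMJD3 cells, against 185.7 and 179.1 in cultured JMJD3 cells. LUM read 413.4 and 269.7, against 313.1 and 303.5. The part of such cells in the differences above was not tested. In RNA from a whole culture, fewer cells of a type and less RNA per cell cannot be told apart.

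The second question was what JMJD3 does to these genes in cells from tumors. ITGA2, the alpha chain of a collagen and laminin receptor, was the 1 gene of 26 that passed, and it rose; none fell. Over all genes 0.822% were called, 0.371% higher and 0.451% lower. ITGA2 read 909 and 741 in tumor-dissociated JMJD3 cells, against 435 and 346 in tumor-dissociated vector cells, without overlap, and rose 2.52-fold (log2 difference 1.33 ± 0.21, limma adjusted p = 0.0268). In culture it read 676 and 724 with JMJD3, against 497 and 407 with vector, also without overlap, and did not pass (log2 difference 0.78 ± 0.21, limma adjusted p = 0.611). The test of the difference of the JMJD3 effect between origins gave 0.55 ± 0.30 for ITGA2 (limma adjusted p = 0.801).

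The call of ITGA2 depended on how the spread was estimated. Its log2 difference was unchanged at 1.33 when the cultured arrays were left out of the fit and with array weights, where it did not pass (limma adjusted p = 0.137 and 0.0666), nor did it without replicate 1 or replicate 2 of the cultured JMJD3 cells, which enter only through the spread (limma adjusted p = 0.0643 for each). It was 1.16 without replicate 1 of the tumor-dissociated JMJD3 cells, 1.11 without the tumor-dissociated vector array of replicate 2, and 0.94 without both (limma adjusted p = 0.128, 0.206 and 0.241).

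ITGA3, the alpha chain of a laminin receptor, missed the threshold. It read 3773 and 2999 in tumor-dissociated JMJD3 cells, against 1931 and 1961 in tumor-dissociated vector cells, and 2423 and 2359 in cultured JMJD3, against 2401 and 2378 in cultured vector cells. The log2 difference was 0.82 ± 0.16 in tumor-dissociated cells (limma adjusted p = 0.0689) and 0.001 ± 0.16 in culture. ITGA3 did pass in tumor-dissociated cells without background correction, with an offset of 50, with a trended robust variance and without replicate 2 of the tumor-dissociated JMJD3 cells. ITGA5, the alpha chain of a fibronectin receptor, was higher in tumor-dissociated JMJD3 than in tumor-dissociated vector cells without overlap, at 1655 and 1251 against 1146 and 1019, and did not pass (log2 difference 0.45 ± 0.18, limma adjusted p = 0.325).

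The groups did not overlap for 12 of the 26 genes, all 12 higher with JMJD3 in tumor-dissociated cells, while 19% of all genes were higher and 19.6% lower without overlap. These 12 were ITGA1, ITGA2, ITGA3, ITGA5, ITGA6, ITGA10, ITGA11, ITGAV, ITGB2, ITGB5, LAMA4 and LAMB3. The median log2 difference of the 26 genes was 0.33, beside -0.001 over all genes, and 0.46 over the 20 above background on all 8 arrays, beside -0.003. In the 8 fits that left out 1 array the median of the 26 lay between 0.33 and 0.40, and it was 0.48 without both arrays that stood apart.

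The size of several of the larger differences depended on 1 array. LAMB3, a laminin beta chain of epithelial basement membranes, read 869 and 310 in tumor-dissociated JMJD3 cells, against 211 and 184 in tumor-dissociated vector cells. Its log2 difference of 2.09 ± 0.49 did not pass (limma adjusted p = 0.098), and was 1.15 without replicate 1 and 3.03 without replicate 2 of the tumor-dissociated JMJD3 cells. LAMB3 was also higher with JMJD3 in culture without overlap, at 352 and 430.0 against 232 and 267 with vector (log2 difference 0.97 ± 0.49, limma adjusted p = 1).

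ITGA1, ITGA10 and ITGA11, collagen-binding chains like ITGA2, were uneven in the same way within the tumor-dissociated JMJD3 cells, whereas ITGA2 was less so, at 909 and 741. ITGA1 read 1100.4 and 399.6 there, against 271 and 267 in tumor-dissociated vector cells (log2 difference 1.71 ± 0.48, limma adjusted p = 0.16). ITGA11 read 559 and 238, against 197 and 211 (1.29 ± 0.44, limma adjusted p = 0.236), and ITGA10 read 756 and 393, against 365 and 236 (1.22 ± 0.39, limma adjusted p = 0.206). Without replicate 1 of the tumor-dissociated JMJD3 cells these differences were 0.83 for ITGA1, 0.42 for ITGA11 and 0.64 for ITGA10, and without replicate 2 they were 2.58, 2.17 and 1.80 and passed (limma adjusted p = 0.00359, 0.000836 and 0.0296).

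Against cultured JMJD3 cells, at 189 and 191, ITGA11 was higher by 1.504 ± 0.44 in tumor-dissociated JMJD3 cells and did not pass (limma adjusted p = 0.0765). PDGFRB moved with the same array, at 2000 and 792 in tumor-dissociated JMJD3 cells, against 556 and 601 in tumor-dissociated vector cells, and so did CSF1R, a receptor of macrophages, at 558 and 183 against 178 and 157. Other fibroblast and leukocyte markers differed in direction between these JMJD3 arrays. PDGFRA, LUM, COL1A1, FAP, CD14 and CD68 were also higher on replicate 1. DCN, COL1A2, LYZ and LAPTM5 were lower on it, with DCN at 161.3 and 213, COL1A2 at 265.9 and 330.5, and LYZ at 194.4 and 248.4. For JMJD3 against vector in tumor-dissociated cells the median log2 difference of the fibroblast markers was -0.381. The part of any of these markers in the differences above was not tested.

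**Figure D2:**
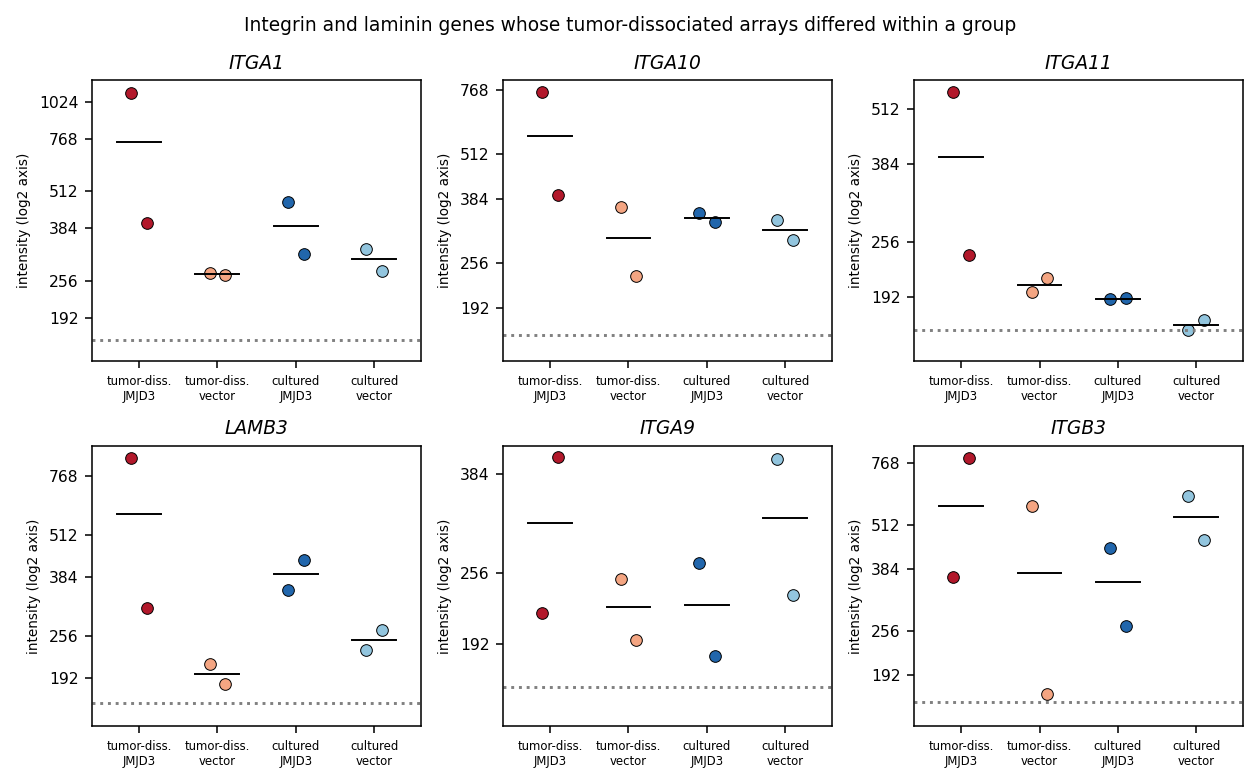
Deposited intensity of ITGA1, ITGA10, ITGA11, LAMB3, ITGA9 and ITGB3 on each of the 8 arrays, on a log2 axis. Points are arrays, bars are means of 2 arrays, and the dotted line is the background level of 161.4. In ITGA1, ITGA10, ITGA11 and LAMB3, 1 of the 2 tumor-dissociated JMJD3 arrays stands above all others, and ITGB3 differs widely between the 2 tumor-dissociated vector arrays.

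ITGB3, the beta chain of the vitronectin receptor and a known marker of invasive melanoma growth, had the largest standard error of the 26 genes. It read 365 and 793 in tumor-dissociated JMJD3, 579 and 170.0 in tumor-dissociated vector, 440.2 and 265 in cultured JMJD3, and 617 and 462 in cultured vector cells. The array at 170.0 was the one on which SOX10 was at 231. Its log2 difference with JMJD3 in tumor-dissociated cells was 1.24 ± 0.80 (limma adjusted p = 0.571) and -0.165 without that array. Tumor-dissociated against cultured vector cells differed by -1.26 ± 0.80 (limma adjusted p = 0.364), by 0.15 without that array, and by -2.67 without replicate 1 of the tumor-dissociated vector cells, where it passed (limma adjusted p = 0.0341). ITGAV, the alpha partner of ITGB3, read between 717 and 973 on the 8 arrays and passed in no comparison.

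The pooled SD between replicates of the 26 genes was 0.619 in tumor-dissociated JMJD3 and 0.478 in tumor-dissociated vector cells on the log2 scale, beside 0.291 and 0.280 over all genes. In culture it was 0.315 with JMJD3 and 0.246 with vector, beside 0.208 and 0.184 over all genes.

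In cultured cells no integrin or laminin gene passed for JMJD3 against vector by limma, and 3 of 26 had an unadjusted p under 0.05, ITGA2, LAMA4 and LAMA5. Over all genes 0.0886% were called and 4.34% had an unadjusted p under 0.05. LAMA5 was higher with JMJD3, at 1777 and 1665 against 1219 and 1161 with vector (log2 difference 0.57 ± 0.21, limma adjusted p = 1). LAMA4 was lower with JMJD3, at 838 and 545 against 1223 and 888 (log2 difference -0.72 ± 0.27, limma adjusted p = 1). The median over the 26 genes was 0.006, beside -0.009 over all genes, and the groups did not overlap for 6 genes that were higher and 5 that were lower, beside 17.8% and 18.5% of all genes.

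Whether the JMJD3 effect differed between origins was tested directly, and 0 of 26 genes passed by limma, with 4 at an unadjusted p under 0.05, ITGA3, ITGA6, ITGB5 and LAMA4. Over all genes 6.88% had an unadjusted p under 0.05 and 0.105% were called, 0.0242% upward and 0.0805% downward in tumor-dissociated relative to cultured cells. The effect was more positive in tumor-dissociated cells for 21 of the 26, with a median difference of 0.45, beside 0.005 over all genes and a positive sign in 6281 of 12415. Without both arrays that stood apart that median was 0.28. On the log2 scale ITGA3 differed by 0.82 ± 0.23 and ITGB5 by 0.74 ± 0.22 (limma adjusted p = 0.404 and 0.48). ITGA9, an alpha chain that pairs with ITGB1 and binds tenascin and osteopontin, read 218 and 411 in tumor-dissociated JMJD3, 251 and 195 in tumor-dissociated vector, 267 and 183 in cultured JMJD3 and 407 and 235 in cultured vector cells. Both JMJD3 groups overlapped their vector group, and the difference of effects of 1.49 ± 0.77 did not pass (limma adjusted p = 0.785). The differences of effects of ITGB3, ITGA1, LAMB3 and ITGA10 were 2.12, 1.22, 1.12 and 1.05, none of which passed (limma adjusted p = 0.79 to 0.84). With 1 array left out they ranged from 0.71 to 3.53 for ITGB3, from 0.34 to 2.09 for ITGA1, from 0.17 to 2.06 for LAMB3 and from 0.47 to 1.64 for ITGA10. LAMB3 and ITGA11 passed without replicate 2 of the tumor-dissociated JMJD3 cells (limma adjusted p = 0.0471 for LAMB3).

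**Figure D3:**
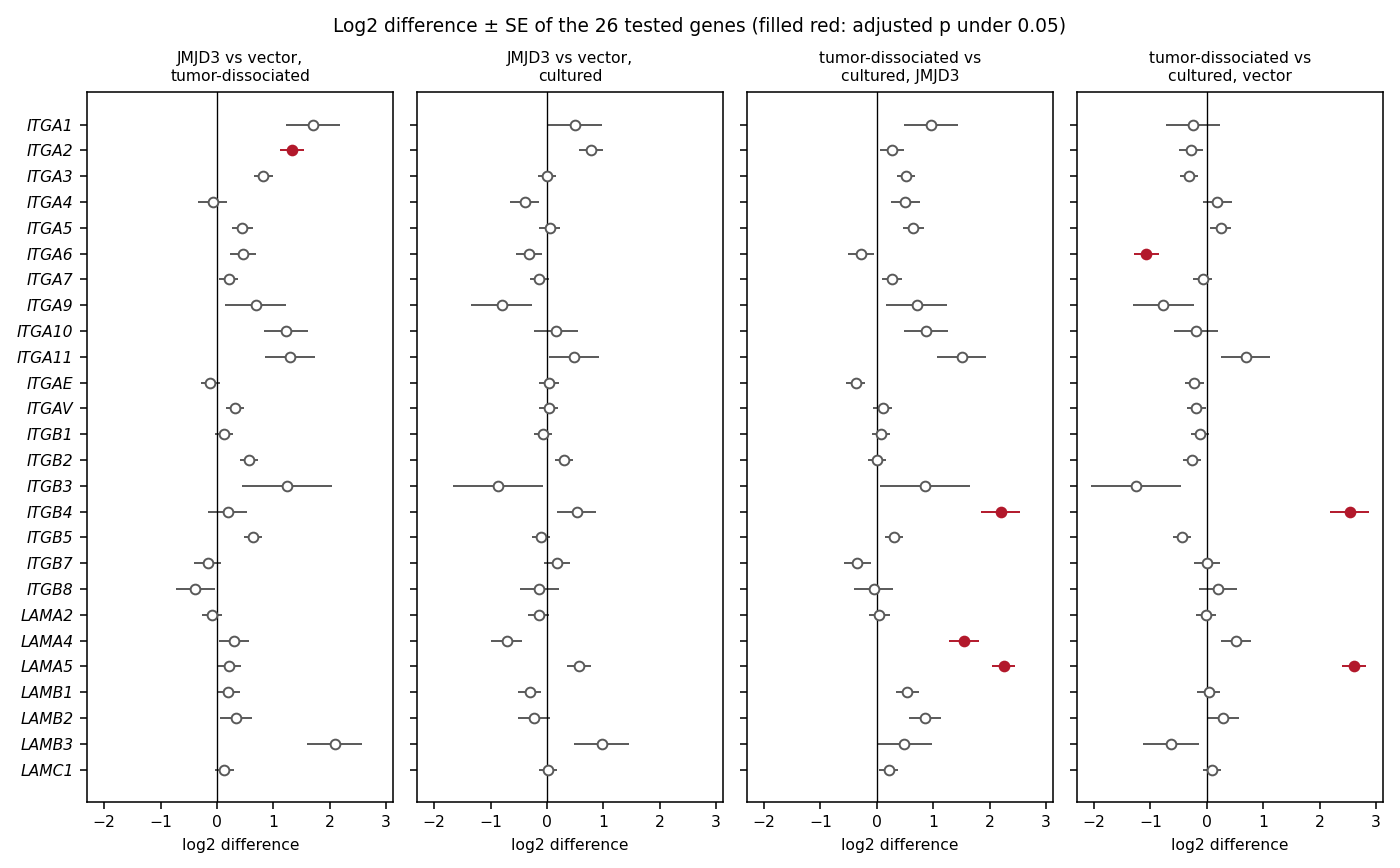
Log2 difference of each of the 26 tested genes in 4 comparisons, with the standard error as a horizontal bar; filled red points had a limma adjusted p under 0.05. LAMA5 and ITGB4 pass in both comparisons of origin, LAMA4 in JMJD3 cells, ITGA6 in vector cells and ITGA2 for JMJD3 against vector in tumor-dissociated cells. ITGB4 was not above background in cultured vector cells. The comparisons share groups and are not independent of each other.

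Genes with more than 1 probe gave a check within the array. ITGB5, the beta chain of another vitronectin receptor, had 3 probes above background on all 8 arrays. The brightest, used for the gene, read 5548 and 5436 in tumor-dissociated JMJD3, 3740 and 3433 in tumor-dissociated vector, 4854 and 4103 in cultured JMJD3 and 5026 and 4580.1 in cultured vector cells. Tumor-dissociated vector cells were the lowest group by all 3 probes. For JMJD3 against vector in tumor-dissociated cells the 3 probes gave 0.63, 0.67 and 0.91 on the log2 scale, and the last passed in a fit of all probes (limma adjusted p = 0.0384). Against cultured vector cells they gave -0.43, -0.65 and -0.86 in tumor-dissociated vector cells, and the last 2 passed (limma adjusted p = 0.0392 and 0.0111). The remaining 2 ITGB5 probes were above background on 0 arrays.

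A second ITGB4 probe was above background on all 4 tumor-dissociated arrays and on 0 of the 4 cultured arrays, at 213 and 194 in tumor-dissociated JMJD3 and 182 and 231 in tumor-dissociated vector cells, against 139 to 148 in culture. It entered the fit of all probes through its tumor-dissociated arrays alone, so its values are given without a test, and the other 2 ITGB4 probes were above background on 0 arrays. Both LAMA4 probes rose in tumor-dissociated against cultured JMJD3 cells, by 1.54 and 1.38. The second ITGA6 probe, close to background at 148 to 204, differed by -0.83 between tumor-dissociated and cultured vector cells and did not pass (limma adjusted p = 0.0911). ITGB1 and LAMB1 had 2 tested probes each, and none of these 4 probes passed in any comparison. The probes of LAMB3 not used for the gene, at 127 to 150.6, were above background on 0 arrays. So was the second ITGA3 probe, at 151.9 to 156.4, which leaves LAMB3 and ITGA3 with 1 tested probe each.

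**Figure D4:**
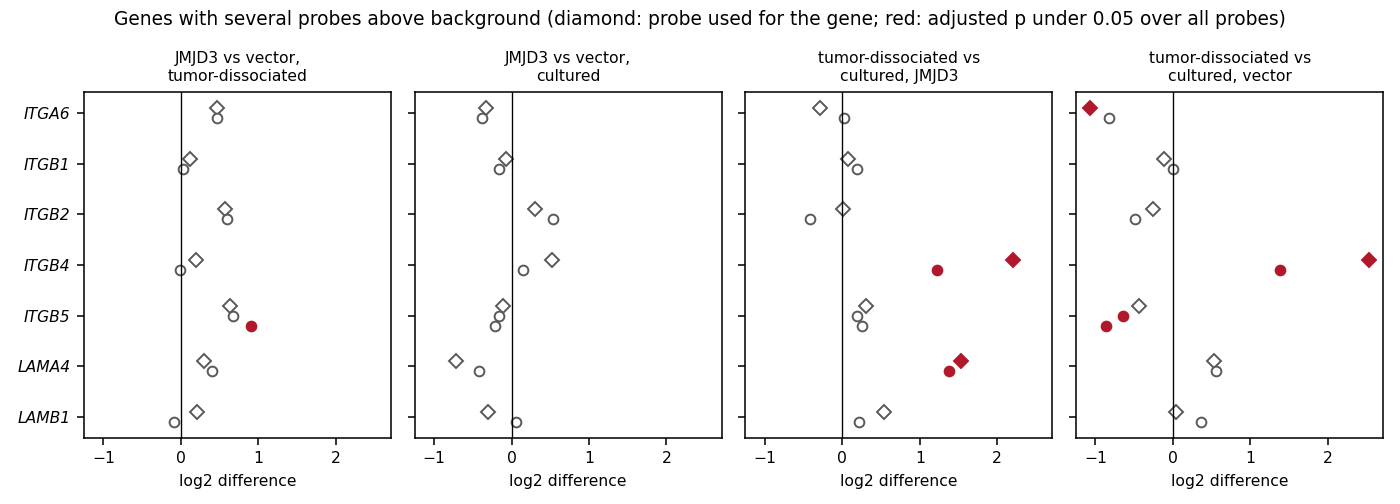
Log2 differences of the probes of the 7 genes with at least 2 probes above background, in 4 comparisons. Diamonds are the probes used for the genes, circles are their other probes, and red marks a limma adjusted p under 0.05 over all 22287 probes tested, which the second ITGB4 probe reached after entering the fit through its tumor-dissociated arrays alone. The probes of LAMA4 lie at 1.54 and 1.38 in tumor-dissociated against cultured JMJD3 cells, and the 3 probes of ITGB5 lie on the same side of 0 within each panel.

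The genes that act with integrins and laminins were read from 6 lists. Most of the calls were in matrix ligands of integrins, of which 9 of 23 rose and 1 fell in tumor-dissociated against cultured JMJD3 cells, with a median of 0.59, beside 3.76% and 2.2% of all genes and a median of -0.012. In vector cells 8 of 23 rose and 3 fell, with a median of 0.45, beside 6.15% and 3.99% of all genes and a median of -0.026. In the comparison of JMJD3 cells FN1, COL1A1 and COL3A1 were above background in the tumor-dissociated group alone. The same held for COL3A1, POSTN and FGB in the comparison of vector cells. The counts of rises include these genes, whose calls there are no support. COL6A3, a chain of the microfibrillar collagen VI, rose 11.7-fold in JMJD3 cells (log2 difference 3.55 ± 0.19, limma adjusted p = 3.71e-05) and 8.2-fold in vector cells (3.04 ± 0.19, limma adjusted p = 3.42e-05). COL1A1, COL1A2, COL3A1, COL6A2 and POSTN, which encodes periostin, were called higher with either construct. COL1A2, a chain of fibrillar collagen I, averaged 298 ± 45.7 in tumor-dissociated JMJD3 and 435 ± 47.2 in tumor-dissociated vector cells, against 169 ± 21.3 in cultured JMJD3 and 166 ± 5.58 in cultured vector cells (intensity, SD, n = 2 each). SPP1, which encodes the integrin ligand osteopontin, rose by 5.20 ± 0.30 in vector cells and by 1.92 ± 0.30 in JMJD3 cells (limma adjusted p = 2.63e-05 and 0.0131). FN1, fibronectin, averaged 259.6 ± 92.9 in tumor-dissociated JMJD3 cells and 156.9 ± 4.9, not above background, in cultured JMJD3 cells. THBS1, the matrix glycoprotein thrombospondin 1, fell with either construct, with log2 differences of -3.36 ± 0.16 in vector and -0.90 ± 0.16 in JMJD3 cells (limma adjusted p = 9.08e-06 and 0.0188). The JMJD3 effect differed between origins by 2.46 ± 0.23 for THBS1 and by -3.27 ± 0.43 for SPP1 (limma adjusted p = 0.0118 and 0.0361). In that test 0.105% of all genes were called. Both calls depended on which arrays were included.

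TNC and CCN1 were the other 2 that fell in vector cells. Without replicate 1 or replicate 2 of the cultured JMJD3 cells the rises in JMJD3 cells numbered 2 and 3, and without replicate 1 of the tumor-dissociated JMJD3 cells 6. COL1A1 and COL1A2 are also among the fibroblast markers above. FGB, which is counted among the rises in vector cells, averaged 218.5 ± 36.1 in tumor-dissociated vector cells. It averaged 150.4 ± 4.44 in tumor-dissociated JMJD3 and 143.7 ± 2.15 in cultured vector cells, neither above background. Of these groups it entered the comparisons through tumor-dissociated vector cells alone, so its calls are no support. For JMJD3 against vector in tumor-dissociated cells 1 of 23 ligands rose, THBS1, and 2 fell, COL3A1 and FGB, beside 0.371% and 0.451% of all genes. The falls numbered 0 without replicate 1 of the tumor-dissociated JMJD3 cells or without either cultured JMJD3 array, and the rises 5 without replicate 2 of the tumor-dissociated JMJD3 cells and 2 without replicate 1 of the vector cells from tumors. In culture 0 of 23 were called, and 1 rose without either of the tumor-dissociated JMJD3 arrays.

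Among the ligands on cell surfaces VCAM1, the counter-receptor of the integrin chain ITGA4, was the 1 of 6 called higher in tumor-dissociated against cultured cells, with either construct. Of all genes 3.76% were called higher in JMJD3 and 6.15% in vector cells. VCAM1 was above background in neither cultured group. It entered the test through its tumor-dissociated arrays alone, so its values are given without a test. Its intensity averaged 1044 ± 317 in tumor-dissociated JMJD3 cells, against 135.8 ± 3.7 in cultured JMJD3 cells. In vector cells it averaged 1679 ± 161 in tumor-dissociated cells, against 128.5 ± 5.62 in cultured cells. ITGA4 itself read 295 and 414 in tumor-dissociated JMJD3, 320.1 and 409.9 in tumor-dissociated vector, 263 and 288 in cultured JMJD3 and 347 and 314 in cultured vector cells, and passed in no comparison.

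Of 12 basement membrane partners of laminins, COL4A1, COL4A2 and COL18A1 fell and COL4A5 rose in tumor-dissociated against cultured vector cells. Of all genes 3.99% were called lower and 6.15% higher there, and 2.2% lower and 3.76% higher in JMJD3 cells. COL4A1 and COL4A2, the 2 chains of the most common type IV collagen, fell, with log2 differences of -1.71 ± 0.29 and -1.27 ± 0.22 (limma adjusted p = 0.00685 and 0.00864), while the laminin chain LAMA5 rose in the same comparison. In JMJD3 cells 1 of 12 was called, COL4A6, which was higher in tumor-dissociated cells. Its intensity averaged 224 ± 57.8 there and 151 ± 4.24, not above background, in cultured JMJD3 cells, so its call is no support. The calls of this list in JMJD3 cells changed when single arrays were left out. Without replicate 2 of the cultured vector cells 1 basement membrane gene fell in vector cells. For JMJD3 against vector 0 of 12 were called in either origin, with a median of 0.59 in tumor-dissociated cells and 0.14 in culture. In tumor-dissociated cells 2 rose without replicate 2 of the JMJD3 cells and 3 without replicate 1 of the vector cells.

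Of 27 focal adhesion genes, which link integrins to actin, VCL (vinculin) rose and ACTN1 and NEDD9 fell in tumor-dissociated against cultured vector cells, and ZYX (zyxin) rose in JMJD3 cells. The log2 differences were 0.98 ± 0.21 for VCL, -0.73 ± 0.14 for ACTN1, -1.05 ± 0.20 for NEDD9 and 0.69 ± 0.16 for ZYX (limma adjusted p = 0.0214, 0.0142, 0.0127 and 0.0432). These counts, 3 and 1 of 27, are close to or below the 10.1% and 5.96% of all genes called. The count in vector cells was 0 without replicate 2 of the tumor-dissociated or without either array of the cultured vector cells, and that in JMJD3 cells was 0 without replicate 1 of the tumor-dissociated JMJD3 cells or any 1 of the cultured arrays. For JMJD3 against vector 0 of 27 were called in either origin, and 1 rose in tumor-dissociated cells without replicate 2 of the JMJD3 cells or replicate 1 of the vector cells. Of the 9 laminin receptors outside the integrin family and hemidesmosome genes, SDC2, a syndecan, was called once, higher by 1.12 ± 0.26 in tumor-dissociated against cultured JMJD3 cells (limma adjusted p = 0.0423), and 0 of 9 rose there in 7 of the 8 fits that left out 1 array, all but the fit without the tumor-dissociated JMJD3 array of replicate 2. Of 7 tetraspanins, membrane proteins that bind integrins laterally, TSPAN8 was the 1 called. It was higher in tumor-dissociated than in cultured vector cells, and lower with JMJD3 than with vector in tumor-dissociated cells. Of all genes 6.15% were called higher in the first of these comparisons and 0.451% lower in the second. TSPAN8 averaged 152.7 ± 0.151 in tumor-dissociated JMJD3, 456.3 ± 30.8 in tumor-dissociated vector and 151.9 ± 4.06 in cultured vector cells. Of these groups it was above background in tumor-dissociated vector cells alone. It entered both comparisons through that group, so its values are given without a test.

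**Figure D5:**
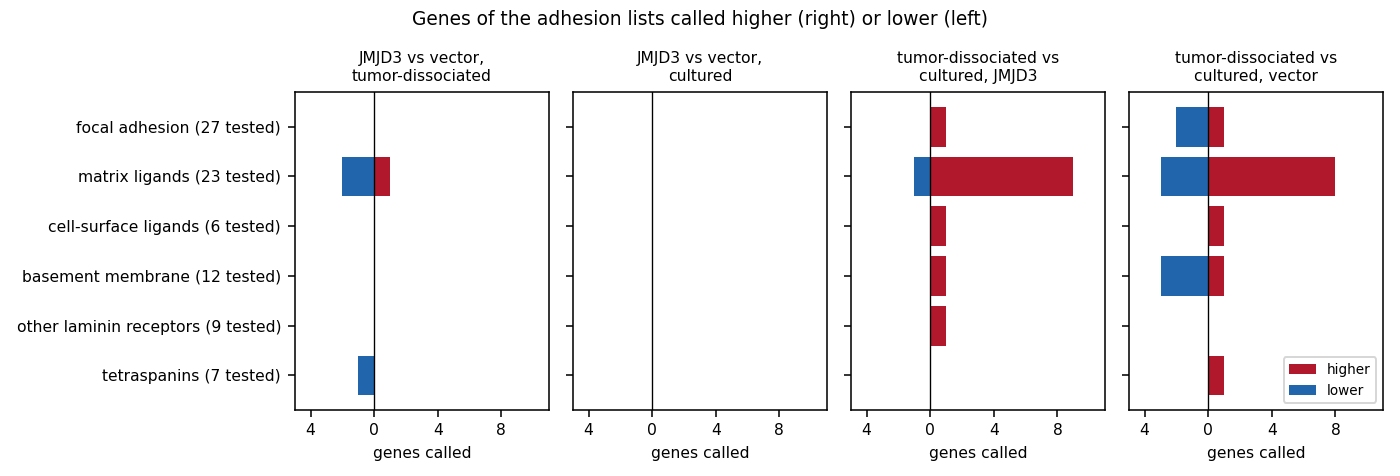
Number of genes of 6 adhesion lists called higher (to the right) or lower (to the left) at a limma adjusted p under 0.05 in 4 comparisons, with the number of tested genes beside each list name. Matrix ligands of integrins hold the most calls in both comparisons of origin, 10 of 23 in JMJD3 cells and 11 of 23 in vector cells, and no list gene is called for JMJD3 against vector in culture. The calls include genes above background only in the compared group where they were higher.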

How the data were processed

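RNA was isolated with Qiazol, amplified and biotin-labelled, per the labels' protocols. The deposited intensity values, processed by the authors in GenomeStudio per the series' design text (framework 2011.1, Gene Expression module 1.9.0), are on a linear scale. How they were normalized was not stated, but no 2 sorted columns were further apart than 0.0057 in log2. The lowest intensity was 110.7, which alone does not settle whether a background had been subtracted. A second table was not used because its 16 columns other than the probe name, which are not 16 arrays, match no sample label. Detection p-values were therefore not used either.

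The background level was the mode of all log2 intensities (139.7), and probes had to exceed its one-sided 0.01 point, 161.4, on at least 2 of 8 arrays. This kept 22287 probes and 12415 genes, each gene represented by its brightest probe. Intensities were corrected with normexp (offset 16) and tested with limma 3.58.1 in R 4.3.3: 1 model of 4 group means, 5 contrasts, Benjamini-Hochberg adjustment over all tested genes. A gene was called at an adjusted p under 0.05. The smallest p of an exact permutation of 2 against 2 arrays is 0.333, so each p rests on the pooled spread. Unless another fit is named, log2 differences are of corrected values, and intensities are as deposited. Genes named were those called or differing by at least 1 on the log2 scale, their partner chains, and called list genes; ITGA5 and ITGB5, and the markers PDGFRB and CSF1R, were chosen after their values were seen. The members and lists were chosen with earlier results of these data known. Alternatives covered the background correction, filter, probe choice, normalization, variance model, array weights, threshold, replicate block and left-out arrays. The number of arrays limits the precision. The script was tested on simulated data. Gene symbols come from the platform annotation.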

Additional observations from a re-analysis of the deposited data

How the results depend on the processing

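The number of called integrin and laminin genes for JMJD3 against vector in tumor-dissociated cells, 1 as reported, was 2 without background correction, 2 with an offset of 50, 2 with all probes tested separately, 2 with a trended robust variance, 3 at an adjusted p under 0.1, 0 in a fit of only the compared groups, 0 with array weights and 0 without both arrays that stood apart, a setting chosen after seeing the data. It ranged from 0 to 6 over the fits that left out 1 array. For tumor-dissociated against cultured JMJD3 cells, 3 as reported, it was 6 at an adjusted p under 0.1 and from 1 to 9 with 1 array left out. For tumor-dissociated against cultured vector cells, also 3, all alternatives gave 2 to 4. No gene was called for JMJD3 against vector in culture under any alternative (range 0 to 0), and the difference of effects gave 0 to 2 with 1 array left out. With 1 array left out, the lone array of its group is assumed to vary like the other groups. Calls over all genes moved with the settings too. For JMJD3 against vector in tumor-dissociated cells they numbered 102 as reported, 65 without background correction and 114 with an offset of 50. They numbered 138 with a trended robust variance and 15 in the fit of only the compared groups.

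Replicate numbers were not treated as pairs: the labels give no shared source, and deviations of same-numbered arrays correlated with r between 0.046 and 0.371, over 0.1 for 3 of 6 pairs of groups. A pairing of the cultured arrays, with the highest r, is not settled by this. The replicate block gave 5 called genes in place of 3 for tumor-dissociated against cultured JMJD3 cells, and changed none of the other member counts. Over all genes it gave 1161 calls in that comparison in place of 740.

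Signs turned in 5 cases, none of them called. Without replicate 2 of the tumor-dissociated vector cells ITGB3 stood at -0.165 for JMJD3 against vector in tumor-dissociated cells and at 0.149 for tumor-dissociated against cultured vector cells. Without both arrays that stood apart the last value was again 0.149, and the difference of effects was -0.018 for ITGA10 and -0.032 for LAMB3. Over the fits that left out 1 array, ITGB3 ranged from -0.165 to 2.652 in the first comparison and from -2.668 to 0.149 in the second. The cause was not tested.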
